A study of Mus musculus and Homo sapiens with 10 samples.

Results

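The regions described here are the 100 kb bins that lie within 1 Mb on either side of the centromere gap in TK6, an established human lymphoblastoid cell line. On each of chromosomes 1 to 12 and 16 to 20 (GRCh37), the gap was taken as the longest stretch without a break end in the 4 TK6 libraries together. The flanks were thus chosen by the position of break ends, of both conditions together. A bin belonged to a flank if its middle lay outside the gap and less than 1 Mb from its edge. This gave 340 flanking bins, 10 on each side of 17 gaps, of 29527 bins on chromosomes 1 to 22 and X, and they were set against the 23281 other arm bins of the same 17 chromosomes. DNA double-strand breaks had been mapped with in-suspension BLISS, a method that ligates an adapter to the blunted ends inside fixed material and sequences outward from it. The groups were TK6 treated with etoposide (2 libraries) and TK6 given DMSO, the vehicle (2 libraries). The labels give neither dose nor duration. They also do not say whether replicate libraries are from different cultures, so p-values reflect the spread between libraries, which may be technical. On chromosomes 1 to 22 and X the etoposide libraries held 11452803 and 8931105 break ends, against 1080105 and 584243 in the DMSO libraries.

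A centromere is the chromosome region on which the kinetochore is built, and in human cells it consists of long arrays of alpha-satellite repeats. The sequence beside it is pericentromeric: satellite arrays pass into segmental duplications and then into the unique sequence of the arm, and much of it is packed as heterochromatin. GRCh37 leaves the core arrays out as a stretch without sequence, and reads from the repeats at its edges often match several places. Topoisomerase II, which etoposide traps on cleaved DNA, separates intertwined sister DNA, a task that lasts longest at centromeres.

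The gap was between 3.0 and 3.211 Mb long on 14 chromosomes. On the other 3 chromosomes it was longer, with 21.05 Mb on chromosome 1, 19.045 Mb on chromosome 9 and 11.101 Mb on chromosome 16. No other stretch without a break end on these chromosomes exceeded 1.15 Mb. No human annotation and no human genome sequence were used here, so the identity of the gap with the centromere rests on its being the longest stretch, and no gene is named for a bin.

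Break ends were sparse on the flanks in both conditions. With each bin divided by the median of the other arm bins of its chromosome (relative density), the median flanking bin had 0.381 and 0.310 in the etoposide libraries, against 0.377 and 0.351 in the DMSO libraries. The mean was 0.345 ± 0.0499 after etoposide and 0.364 ± 0.0183 in DMSO (SD, n = 2 each). The ranges overlapped, and the difference of -0.08 on the log2 scale gave p = 1 in a two-sided exact permutation test, in which 2 libraries against 2 cannot go below 0.333. Since the break ends themselves placed the gap, the low level is given as a description without a test. The copy number of these segments was not measured here.

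Of the 340 flanking bins, 171 (50.3%) had a relative density under 0.5 in all 4 libraries, where 6.74% of all flanking and arm bins did. Only 14 (4.12%) were over 2 in all 4, where 13.5% of all flanking and arm bins were. The flanks held 72632 and 52105 break ends in the etoposide libraries, against 7245 and 3672 in the DMSO libraries. This was 0.634% (Wilson 95% interval 0.630 to 0.639) and 0.583% (0.578 to 0.588) of the etoposide libraries, and 0.671% (0.656 to 0.686) and 0.629% (0.609 to 0.649) of the DMSO libraries. These intervals cover counting error within a library and not the spread between libraries. They also take each count as a separate molecule, and it is not stated whether a count is of molecules or reads. No break end was found in any library in 23 flanking bins, and 9 of these were on the short-arm side of chromosome 9. A count of 0 allows up to 3 break ends, or 0.262 and 0.336 break ends per 1000000 of the library (EPM) in the etoposide libraries and 2.78 and 5.13 EPM in the DMSO libraries.

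Density was low throughout the first 300 kb from the gap and uneven beyond it. In the 34 bins at 0 to 100 kb, the median relative density was 0.20 ± 0.08 after etoposide and 0.16 ± 0.08 in DMSO, and at 200 to 300 kb it was 0.19 ± 0.04 and 0.19 ± 0.09. At 300 to 400 kb it was 0.304 ± 0.0045 after etoposide and 0.303 ± 0.0435 in DMSO, and at 600 to 700 kb it was 0.56 ± 0.01 and 0.59 ± 0.07. Just inside the limit of the flanks, at 900 to 1000 kb, it was 0.43 ± 0.04 after etoposide and 0.43 ± 0.09 in DMSO, and just outside, at 1000 to 1100 kb, it was 0.49 ± 0.01 and 0.51 ± 0.07. Farther out the sides of the gap differed at some distances and not at others. At 2900 to 3000 kb the short-arm side had 0.72 ± 0.02 after etoposide and 0.79 ± 0.04 in DMSO, while the long-arm side had 1.18 ± 0.03 and 1.02 ± 0.03. The long-arm side had its highest values, 1.64 ± 0.28 after etoposide and 1.46 ± 0.17 in DMSO, at 2100 to 2200 kb. At 2700 to 2800 kb the sides were alike. The short-arm side had 0.64 ± 0.05 after etoposide and 0.68 ± 0.07 in DMSO there, and the long-arm side 0.70 ± 0.13 and 0.61 ± 0.12. Within the flanks, both etoposide libraries were below both DMSO libraries at 100 to 200, 400 to 500 and 700 to 800 kb and above them at 500 to 600 kb. The conditions overlapped at the other distances. Of runs of 10 neighbouring bins elsewhere on the arms, 12.6% were lower and 12.5% higher without overlap. A run lies at a single place, whereas a distance step takes 34 bins from 17 chromosomes, so these shares are only a rough guide. With 2 libraries per condition such separation is frequent, so no difference is read from these distances.

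**Figure D1:**
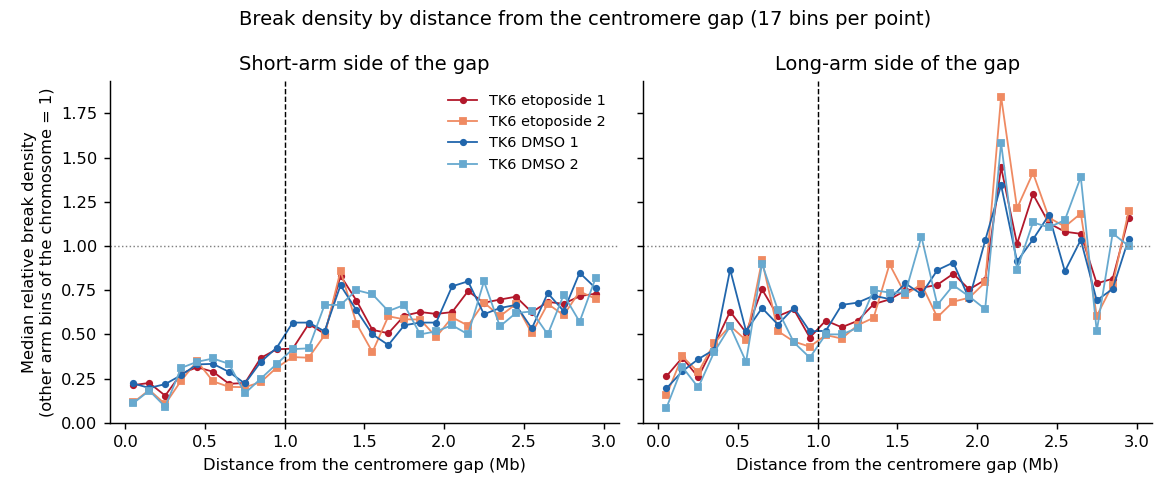
Median relative break density (y axis, other arm bins of the chromosome = 1) against distance from the centromere gap in Mb (x axis), on the short-arm side (left) and the long-arm side (right), 1 line per library and 17 bins per point. The dashed line marks the 1 Mb limit of the flanks, inside which every point lies under 1, and the lines of the etoposide and DMSO libraries cross repeatedly.

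The short-arm side was sparser than the long-arm side. On the short-arm side the median flanking bin had 0.250 and 0.207 in the etoposide libraries, against 0.284 and 0.250 in the DMSO libraries. On the long-arm side it had 0.499 and 0.434 in the etoposide libraries and 0.519 and 0.455 in the DMSO libraries. All 4 libraries thus had the lower value on the short-arm side. By chromosome, the long-arm flank was the denser of the pair in all 4 libraries on 10 of 17 chromosomes, and the short-arm flank on chromosomes 7, 10 and 12. Chromosomes are not replicates of a condition, so no test was made of this difference.

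The 34 flanks covered a wide range. Their median bin was under 1 in all 4 libraries for 26 flanks, where 42.1% of the runs of 10 neighbouring bins elsewhere on the arms were, and over 1 in all 4 for 4 flanks, where 43.8% of such runs were. For 16 flanks it was under 0.5 in all 4 libraries, where 4.63% of such runs were.

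The densest flank was the long-arm side of chromosome 8, from 46900001 to 47900000, with a median of 1.79 and 3.35 in the etoposide libraries, against 1.39 and 2.50 in the DMSO libraries. The long-arm side of chromosome 2, from 95300001 to 96300000, followed with 1.39 and 2.45 in the etoposide libraries and 1.46 and 1.73 in the DMSO libraries. In both flanks replicate 2 was the higher library of each condition, and the conditions overlapped. Dense bins were more frequent in replicate 2 on the other arm bins too, as given below. The long-arm sides of chromosomes 4 and 18 and the short-arm side of chromosome 8 came next, with means of 1.48 ± 0.21, 1.35 ± 0.12 and 1.13 ± 0.11 after etoposide, against 1.28 ± 0.23, 1.04 ± 0.05 and 1.16 ± 0.28 in DMSO.

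The sparsest flanks were both sides of chromosomes 9 and 1 and the short-arm side of chromosome 18. The short-arm flank of chromosome 9, from 46200001 to 47200000, held 0 and 1 break ends in the etoposide libraries, against 0 and 0 in the DMSO libraries. Its long-arm flank, from 66300001 to 67300000, held 194 and 171 break ends after etoposide and 15 and 13 in DMSO. On chromosome 1, the short-arm flank had a median relative density of 0.05 ± 0.01 after etoposide and 0.05 ± 0.03 in DMSO. Its long-arm flank had 0.02 ± 0.01 after etoposide and 0.02 ± 0.02 in DMSO. On chromosome 18, whose long-arm flank was among the densest, the short-arm flank had 0.06 ± 0.01 and 0.06 ± 0.04. These 5 flanks were low in every library, and 4 of the 5, those of chromosomes 9 and 1, border gaps of over 10 Mb. The flanks of chromosome 16, whose gap is also over 10 Mb, were not among the sparsest, with 0.67 ± 0.03 after etoposide and 0.68 ± 0.15 in DMSO on the short-arm side and 1.09 ± 0.06 and 1.06 ± 0.02 on the long-arm side.

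Between the conditions, the medians of 3 flanks were lower in both etoposide libraries than in both DMSO libraries, where 12.6% of runs of 10 other arm bins were, and those of 4 flanks were higher, where 12.5% were. The remaining 27 overlapped.

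**Figure D2:**
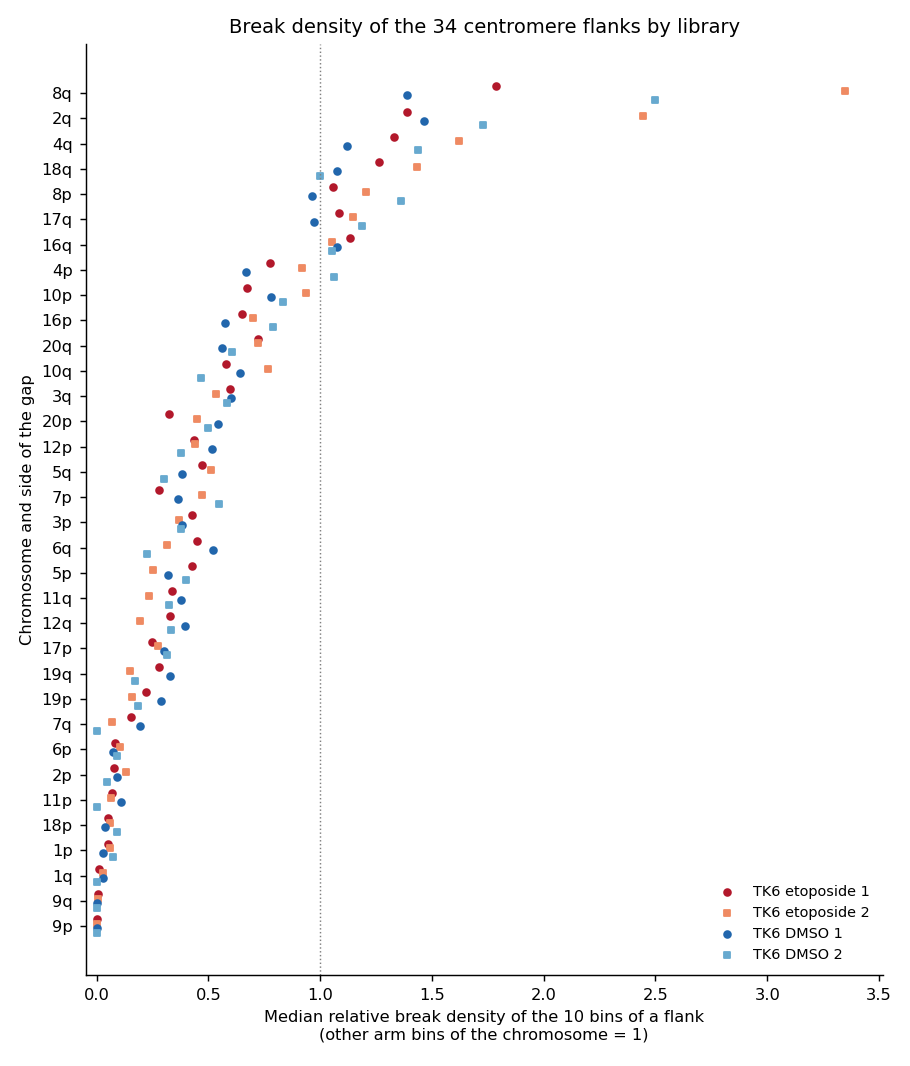
Median relative break density of the 10 bins of each flank (x axis, other arm bins of the chromosome = 1) for the 34 flanks (y axis, chromosome with p for the short-arm and q for the long-arm side), ordered from densest to sparsest, 1 point per library. The 8q flank lies between 1.39 and 3.35, most flanks lie left of 1, and the etoposide and DMSO points are intermingled in most flanks.

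The sparseness went with stretches that held no break end at all. Of the 100 windows of 1 kb in a bin, a median of 62 held a break end in at least 1 of the 4 libraries on the flanks, against 89 in the other arm bins. Under 50 windows were filled in 133 of 340 flanking bins (39.1%), against 725 of 23281 other arm bins (3.11%). In the 16 flanking bins that reach the gap, windows inside the gap are empty by the rule. They count as unfilled here and below. Across the 340 bins, the number of filled windows and the relative density correlated at Spearman rho of 0.83 and 0.78 in the etoposide libraries and 0.81 and 0.76 in the DMSO libraries. This is a description, since both measures come from the same break ends and neighbouring bins are not independent.

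The classes of bins by filled windows were also uneven. At least 80 windows were filled in 88 flanking bins (25.9%), against 18381 other arm bins (79%), and under 20 in 76 flanking bins (22.4%), against 472 other arm bins (2.03%). Since filled windows are counted from the same break ends, densities of flanks and arms were not compared within a class. Counted per filled window in place of per bin, the median flanking bin had a relative density of 0.566 ± 0.0233 after etoposide and 0.631 ± 0.0250 in DMSO. The share of each bin to which a read can be placed was not tested without a genome sequence.

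**Figure D3:**
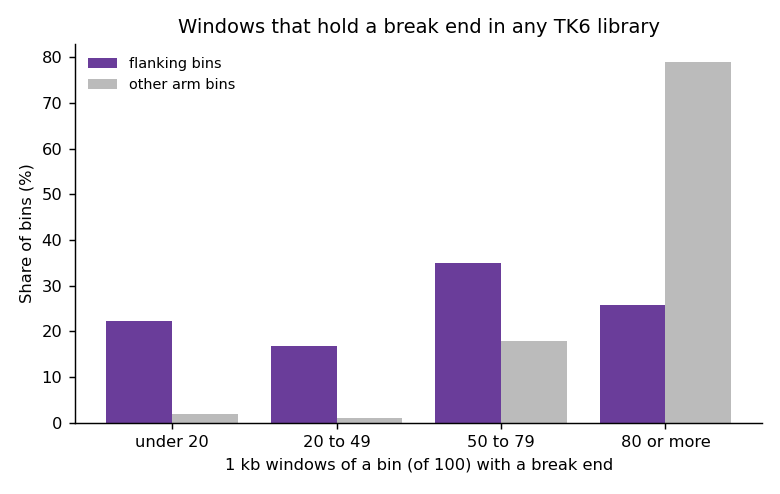
Share of flanking bins and of other arm bins (y axis, percent) by the number of 1 kb windows of 100 that hold a break end in any TK6 library (x axis). In the fullest class are 25.9% of flanking bins and 79% of other arm bins, and in the emptiest 22.4% and 2.03%.

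Some flanking bins were far denser than the arms. Of the 14 bins over 2 in all 4 libraries, 4 were on the long-arm side of chromosome 2, 3 on that of chromosome 8, and the others on 5 further flanks. The densest was chromosome 8 from 47100001 to 47200000, with 1763 and 1505 break ends in the etoposide libraries, against 173 and 113 in the DMSO libraries. This was 7.0 and 11.9 times the median of the other arm bins after etoposide and 6.41 and 10.3 times in DMSO. Its neighbour from 47000001 had 6.13 and 9.84 times after etoposide, against 5.15 and 8.82 times in DMSO. On chromosome 2, the bin from 95900001 had 4.77 and 12.3 times in the etoposide libraries and 3.0 and 5.36 times in the DMSO libraries. On chromosome 12, the bin from 34500001 on the short-arm side had 3.46 and 9.80 times after etoposide and 3.17 and 5.75 times in DMSO. In these 4 bins replicate 2 was the higher library of both conditions, and the conditions overlapped.

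The remaining bin of the 5 densest was of another kind. On chromosome 6, the bin from 58700001 to 58800000, which touches the gap, had 1873 and 531 break ends in the etoposide libraries, against 210 and 58 in the DMSO libraries, or 7.32 and 4.05 times its arm median after etoposide and 7.78 and 5.27 times in DMSO. Of its 100 windows, 27 were filled. Windows beyond 58779303, the last position before the gap, lie in the gap and could not be filled. The window from 58778001 to 58779000, about 0.8 kb from the gap edge, alone held 995 and 267 of these after etoposide and 115 and 28 in DMSO. The break ends of this window lay at 268 and 120 different positions in the etoposide libraries and at 91 and 26 in the DMSO libraries, so it was not a pile at a single base.

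The sparsest bins with a break end in every library were on chromosomes 17 (from 21600001), 18 (from 14600001 and 14500001), 9 (from 66500001) and 6 (from 58100001). Each had 1 break end in each DMSO library and between 3 and 26 in an etoposide library. No order among them can be read from such counts.

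The bins nearest the gap on each side were mixed. Their middles lay within 100 kb of it, and 16 of the 34 reached its edge. Of the 34, 25 were under 0.5 in all 4 libraries and 5 were over 1 in all 4. The 5 were on chromosomes 1, 4 and 8 on the long-arm side and on chromosomes 6 and 10 on the short-arm side. The chromosome 10 bin, from 39100001, had 1152 and 550 break ends after etoposide, against 138 and 44 in DMSO. Its densest window held at most 9.09% of them in any library, unlike that of the chromosome 6 bin. Bins with their middle inside the gap are not flanking bins and are left out of these counts. They held 1991 break ends over the 4 libraries, 1049 of them on chromosome 10 and 488 on chromosome 16.

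Few flanking bins were called between the conditions when each library was scaled to its own break ends. Of the 340 bins, 265 passed the filter on low counts, so the sparsest are not covered by what follows. Over all 27839 bins tested, 0.0144% were called lower and 0% higher (quasi-likelihood test of edgeR, adjusted p under 0.05 by Benjamini-Hochberg). Of the 265 flanking bins, 2 were called lower and 0 higher. Both were known when these regions were chosen for description, so their number is no independent evidence about flanks. The median log2 fold change was 0.0050 over the 265 flanking bins, against 0.024 over all bins tested and 0.025 over the other arm bins. Scaling by library size without TMM shifted the median of all bins to -0.17 and that of the flanking bins to -0.18.

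The share of bins whose conditions did not overlap was near that of the genome. For 36 flanking bins (13.6%) both etoposide libraries were below both DMSO libraries, where 14.2% of all bins were, and for 30 (11.3%) they were above, where 12% were. An unadjusted p under 0.05 was found for 11 of the 265 flanking bins (4.15%), where 2.05% of all bins had one. Of these, 5 were lower (1.89%), where 1.07% of all bins were, and 6 higher (2.26%), where 0.988% were. This share was above the genome's, and it rests on 11 bins, of which 2 passed the adjusted threshold. With the replicate number as a model term, 4 flanking bins passed the adjusted threshold, where 0.0826% of all bins did. An unadjusted p under 0.05 was then found for 34 of the 265 flanking bins (12.8%) and for 3375 of all 27839 bins. These shares lay close together, so the excess over the genome depended on the model. On simulated counts for the bins of this comparison, 0%, 2%, 50% and 88% of bins changed by 1.5, 2, 3 and 4-fold were recovered. Changes below 3-fold in a single bin were thus mostly not detectable at this depth. The changed bins were drawn from all bins tested. Flanking bins held fewer break ends, and recovery on them alone was not simulated.

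**Figure D4:**
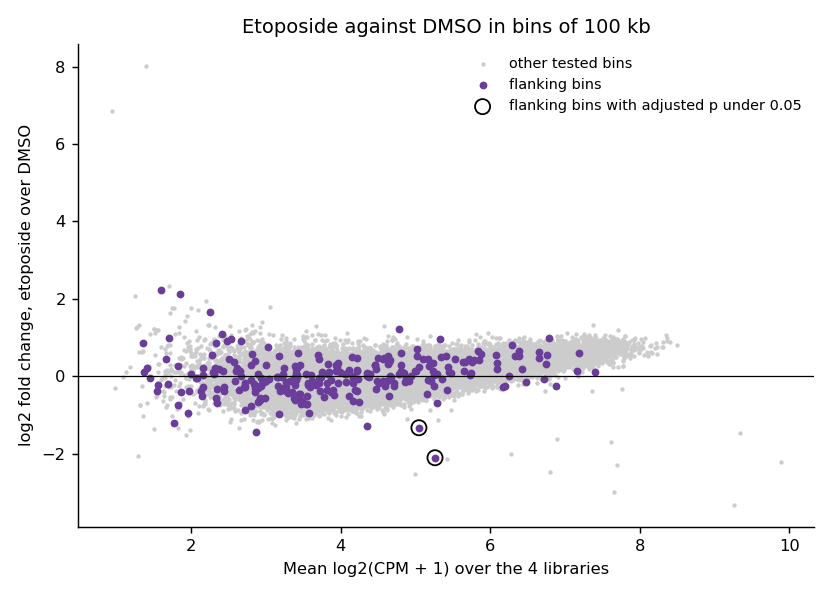
Log2 fold change, etoposide over DMSO (y axis), against the mean log2(CPM + 1) of the 4 libraries (x axis) for 27839 bins of 100 kb, with the 265 flanking bins in colour. The flanking bins lie within the cloud of other bins, and the 2 called bins, ringed, have -2.11 and -1.33.

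Both called bins were on short-arm sides. On chromosome 19, the bin from 24100001 to 24200000, with its middle 479.3 kb from the gap, had 242 and 143 break ends in the etoposide libraries, against 153 and 23 in the DMSO libraries. In counts per 1000000 of the TMM-scaled library (CPM) this was 19.3 and 20.4 after etoposide and 124 and 38.9 in DMSO. The groups did not overlap, but the DMSO libraries lay farther from each other than the lower one lay from the etoposide libraries. The log2 fold change was -2.11 (SE 0.32, adjusted p = 3.21e-07, edgeR). Without DMSO replicate 1 it was -0.97 and no longer called, and with DESeq2 it was -2.03 and not called either.

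On chromosome 20, the bin from 26100001 to 26200000, with its middle 169.4 kb from the gap, had 259 and 158 break ends after etoposide, against 86 and 19 in DMSO, or 20.6 and 22.5 CPM after etoposide and 69.5 and 32.1 CPM in DMSO. Its log2 fold change was -1.33 (SE 0.26, adjusted p = 0.00179, edgeR). Without DMSO replicate 1 it was -0.58 and not called, and with DESeq2 it was -1.30 and not called either (adjusted p = 0.634). In both bins the etoposide libraries were alike and DMSO replicate 1 was the highest library.

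The 2 bins differed in how their break ends were laid out. On chromosome 19, the window from 24184001 to 24185000 held 69 and 27 break ends in the etoposide libraries, against 112 and 15 in the DMSO libraries, so that it had 6.02 and 3.02 EPM after etoposide and 104 and 25.7 EPM in DMSO. Outside this window, the bin had 15.1 and 13 EPM after etoposide, against 38.0 and 13.7 EPM in DMSO. In DMSO the window's break ends came from 22 and 5 positions, and after etoposide from 19 and 13. With each position counted once the bin was not called (log2 fold change -0.94). In a fit with the densest window of every bin left out in each library, it had -0.86 and was not called either. The chromosome 20 window, from 26190001 to 26191000, had 12.1 and 10.7 EPM after etoposide and 44.4 and 22.3 EPM in DMSO, and the rest of its bin had 10.5 and 6.94 EPM after etoposide against 35.2 and 10.3 EPM in DMSO. Its DMSO break ends were spread over 36 and 13 positions. Counted once per position, this bin was still called, with -1.76 (adjusted p = 8.53e-07, edgeR). In the fit with the densest window of every bin left out, it had -1.37 and was not called. Its fold change was thus not smaller there, and the loss of the call cannot be credited to this window alone.

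No other flanking bin passed. Of the bins whose groups did not overlap, that on chromosome 17 from 22000001 was the next lower one, with 10.5 and 14.4 CPM after etoposide, against 27.5 and 33.8 CPM in DMSO (log2 fold change -1.28, SE 0.33, adjusted p = 0.368, edgeR). Its window from 22020001 held 29 and 21 break ends in the etoposide libraries and 17 and 14 in the DMSO libraries, although the etoposide libraries were far deeper. This window was picked for its share of the bin in DMSO, so its contrast is no evidence of a difference. The rest of this bin had 8.99 and 8.96 EPM after etoposide and 15.7 and 10.3 EPM in DMSO. The bins on chromosome 11 from 51200001 and from 55200001 had -1.43 (SE 0.63) and -0.96 (SE 0.51), with adjusted p = 0.999 in edgeR for both.

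Among higher bins, that on chromosome 10 from 43300001 had 30.2 and 55.5 CPM after etoposide, against 21 and 13.5 CPM in DMSO (log2 fold change 1.21, SE 0.30, adjusted p = 0.233, edgeR). The bin on chromosome 12 from 38500001 had 36.0 and 77.2 CPM after etoposide and 29.1 and 28.7 CPM in DMSO (0.96, SE 0.33, adjusted p = 0.999, edgeR). The other 3 of the 5 higher bins with the smallest p rest on few DMSO break ends. Chromosome 10 from 42400001 had 86 and 22 break ends after etoposide and 2 and 0 in DMSO. Chromosome 3 from 90200001 had 69 and 30 after etoposide and 1 and 1 in DMSO, and chromosome 2 from 91900001 had 53 and 69 against 3 and 1. None of the 3 passed, with adjusted p = 0.999 each in edgeR, and no fold is given for them.

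Piled-up windows of 1 kb were more frequent on the flanks than on the arms, but came from few places. A level of at least 10 EPM in all 4 libraries was reached by 4 of 34000 flank windows (1.18 per 10000) and by 109 of 2328100 windows of the other arm bins (0.468 per 10000), which is 0.00478% of both together. Of these 4, 3 were the neighbouring windows from 58777001 to 58780000 on chromosome 6 at the gap edge, and the fourth was the chromosome 20 window described above. In the chromosome 6 bin the densest window had 86.9 and 29.9 EPM after etoposide, against 107 and 47.9 EPM in DMSO, so that its libraries overlapped. Of the 4 flank windows, 1 was lower in both etoposide libraries than in both DMSO libraries, where 6.19% of such windows were, and 0 were higher, where 4.42% were.

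Among bins with at least 5 break ends in each DMSO library, single windows took 50% or more of the DMSO break ends of 1 bin each on chromosomes 7, 19, 1, 20 and 17, the 5 chromosomes with the highest such share. On chromosome 7 the window from 61969001, on the long-arm side, held 215 of 275 and 62 of 80 break ends of its bin after etoposide, against 22 of 30 and 6 of 6 in DMSO. On chromosome 1 the window from 121484001 to 121485000, about 0.9 kb from the gap edge, held 273 of 497 and 86 of 143 after etoposide and 28 of 55 and 8 of 10 in DMSO. In both bins the window took most of the break ends in all 4 libraries. The same held for the chromosome 20 window, with 139 of 259 and 96 of 158 after etoposide and 48 of 86 and 13 of 19 in DMSO. The chromosome 19 window took 69 of 242 and 27 of 143 after etoposide, against 112 of 153 and 15 of 23 in DMSO. For the chromosome 17 window it was 29 of 132 and 21 of 101 against 17 of 34 and 14 of 20. These bins were picked by their share in DMSO, where counts were far lower. No difference between the conditions can therefore be read from these shares. Whether the reads of these windows match a single place in the genome was not tested.

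**Figure D5:**
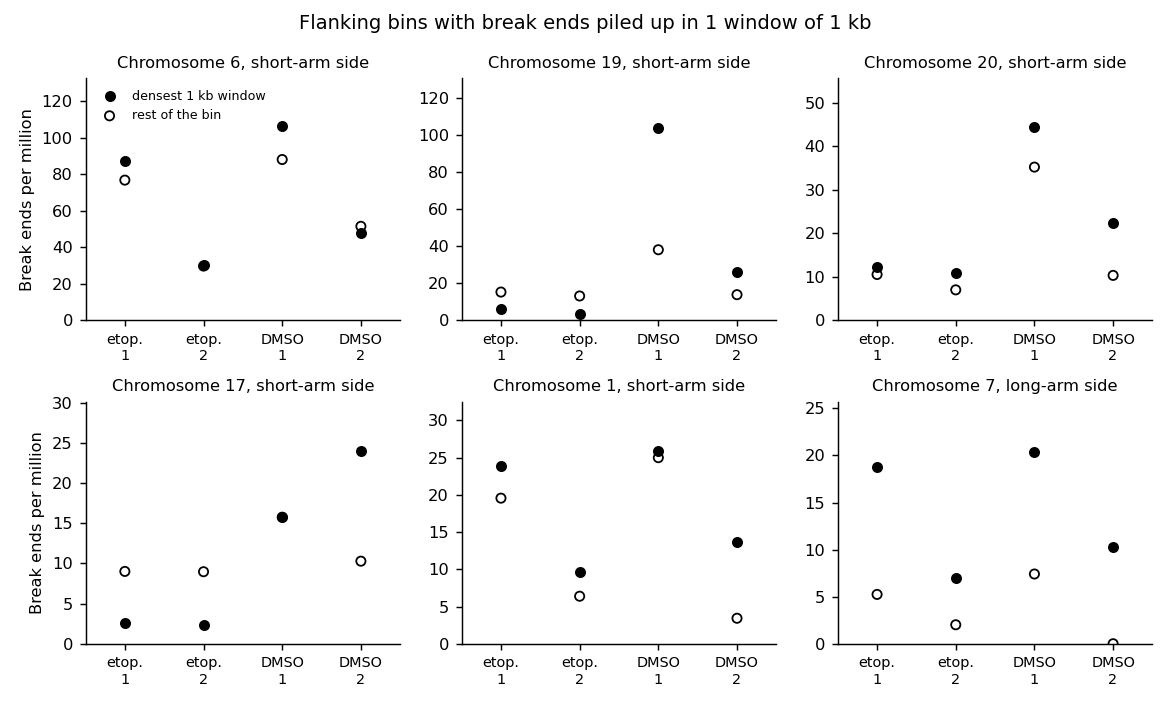
Break ends per 1000000 of the library (y axis) in the densest 1 kb window (filled) and in the rest of its 100 kb bin (open) for 6 flanking bins, by library (x axis, etoposide 1 and 2, then DMSO 1 and 2). The windows on chromosomes 19, 20 and 17 lie lower in both etoposide libraries than in both DMSO libraries, while those on chromosomes 6, 1 and 7 overlap. All but the chromosome 6 bin were picked for a high share of the window in DMSO. The lower etoposide values are therefore no evidence of a difference between the conditions.

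In the denser flanking bins, the share of a bin in its densest window did not differ between the conditions beyond the spread between libraries. Only 74 of the 340 flanking bins held enough break ends for this measure, so the sparse bins are not covered. In the 74 flanking bins with at least 10 break ends in every library at equal depth, the densest 1 kb window took a median of 12.7% and 17.4% in the etoposide libraries, against 11.1% and 14% in the DMSO libraries. The means were 15.1% ± 3.34 after etoposide and 12.6% ± 2.07 in DMSO (SD, n = 2 each), and the two-sided exact permutation test gave p = 0.667. In 10438 other arm bins the same measure was 11.9% ± 2.24 after etoposide and 10.6% ± 1.26 in DMSO. Each library was thus higher on the flanks than on the arms, although bins were not matched for their number of break ends.

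Distances between break positions within flanking bins showed small departures from an even spread. Relative to the mean over distances of 100 to 260 bp, pairs were most frequent at 215 and 216 bp in the etoposide libraries, with 1.13 and 1.11 at 215 bp and 1.11 and 1.12 at 216 bp. In the other arm bins the same distances had 0.998 and 0.994 and 0.995 and 0.991. At 171 bp, which is about the length of an alpha-satellite unit, the flanks had 1.04 and 1.07 after etoposide, against 0.927 and 0.424 in DMSO, and the other arm bins had 1.02 and 1.03 after etoposide. At each single distance the DMSO libraries had few pairs. The choice of 215 and 216 bp came from this profile itself, so no test is given. Between 150 and 200 bp, the pairs of the etoposide flanks were most frequent at 184 bp. Relative to distances 20 to 40 bp to either side, a range that takes in 215 and 216 bp, pairs within 2 bp of 184 bp were at 1.03 and 1.03 in the etoposide libraries, against 1.21 and 1.06 in the DMSO libraries, which had only 138 and 25 such pairs. In the other arm bins this ratio was 1.02 and 1.02 after etoposide and 1.01 and 1.01 in DMSO. Of the 25 flanking bins with at least 1000 etoposide positions, the 5 highest, 2 of them on chromosome 2 and 1 each on chromosomes 16, 17 and 12, had ratios between 1.16 and 1.24. The lowest of the 25 had 0.81. Single libraries could differ, with 1.56 and 1.01 in the chromosome 16 bin. Without these 5 bins, which were picked by this ratio, the flanks had 1.01 and 1.01 after etoposide and 1.22 and 1.03 in DMSO. Reads from satellite arrays that match several places may be missing from the files, and this was not tested.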

How the data were processed

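The authors deposited, per library, a headerless, strandless file of positions, each with its break-end count, without normalization. Reads were aligned with BWA to GRCh37, per the submitters' processing notes. Its version, and how repeated or multiply matching reads were treated, is not given in the sources used here. Counts at repeated positions (7001, 10322, 26 and 2 lines) were added up and summed over bins of 100 kb on chromosomes 1 to 22 and X. Bins were tested with edgeR 4.0.16 in R 4.3.3 (filterByExpr, then TMM, then its quasi-likelihood test; SE from the fold change and F), and p-values were adjusted over all bins. The edgeR test was tested on simulated data (7 false calls among 27839 simulated bins). EPM are break ends per 1000000 of chromosomes 1 to 22 and X. Single values were compared by exact permutation tests. All else was computed in Python 3.11.15. DESeq2 1.42.0 was an alternative.

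The regions, lists and tests were chosen with earlier results of these data known. The rule for named bins took bins past the threshold, the 5 non-overlapping bins with the smallest p in each direction, the 5 densest and 5 sparsest bins and flanks, the 5 highest spacing ratios, and the bin with the highest share in a single window on 5 chromosomes. A minimum of 5 break ends in each DMSO library for that share, the filled windows, piled windows, comparison with runs of 10 bins, distance profile and the bins nearest the gap were added after values were seen. The mouse libraries were not used here.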

Additional observations from a re-analysis of the deposited data

How the results depend on the processing

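The relative density of the flanks stayed under 1 in every alternative. After etoposide it was 0.472 with means over bins, 0.252 with flanks of 500 kb, 0.467 with 2 Mb and 0.566 per filled window, and between 0.310 and 0.381 with 1 library left out. In DMSO it was 0.498, 0.273, 0.486 and 0.631 in the same order, 0.321 without the densest window, 0.417 without empty bins, 0.388 without the bin nearest the gap on each side, and between 0.351 and 0.377 with 1 library left out. Without chromosomes 1, 9 and 16, an alternative chosen after seeing the data, it was 0.420 in DMSO. The log2 difference between conditions was -0.082 as reported, -0.25 at equal depth, -0.19 without chromosomes 1, 9 and 16, and 0.054 without the densest window. It ran from -0.23 (without etoposide replicate 1) to 0.065 (without etoposide replicate 2) with 1 library left out. The number of bins called was 8 (2 flanking) without TMM, 7 (1) with positions counted once, 1 (0) without the densest window and 0 (0) with DESeq2, which had 347 at an unadjusted p under 0.05. With 1 library left out it ran from 0 to 112, and from 0 to 9 on the flanks. It was 0 without DMSO replicate 1 (247 at an unadjusted p under 0.05) and 112 without etoposide replicate 1, where the lone library is assumed to vary like the other group. A replicate block led to 23 called bins, 4 of them flanking (chromosomes 10, 17, 19 and 20). Deviations of libraries with the same number correlated at 0.54, but the labels do not say that numbers mark pairs. The median log2 fold change of flanking bins was -0.18 without TMM. The difference in the share of the densest window turned to -2.16 percentage points at the deposited depth. The etoposide spacing ratio was 1.02 with positions of 1 break end and 1.04 at equal depth. The cause of these shifts was not tested.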
